A study of Mus musculus with 18 samples.

Results

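The genes described here are 37 immediate-early and cyclic AMP response element-binding protein (CREB) target genes, chosen by symbol from the 24054 genes of each tissue table, and all 37 were listed in every table. They were chosen with earlier results of these data known. They were measured by RNA-Seq in hypothalamus, pituitary and thyroid, the organs of the axis that controls thyroid hormone. The groups were WT mice and K146Q mice, 3 of each, which gave 18 libraries in 6 groups. All were untreated males of strain C57BL/Ntac at 3 months of age. K146Q mice were homozygous for a whole-body knock-in that replaces a lysine of thyroid hormone receptor β (THRB), a site of sumoylation, with glutamine, so every cell type that makes THRB carried the mutant receptor in all tissues sampled. The WT libraries carried numbers 1, 2 and 43 and the K146Q libraries numbers 60, 62 and 83, and the same numbers recurred in the 3 tissues. They are read here as numbers of mice shared between tissues, which no label states. Values below are given in that order of mice. The hour of day at which the mice were killed is not given in the sources used here.

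Immediate-early genes are transcribed within minutes of a signal and need no new protein for it. Cyclic AMP acts through protein kinase A, which phosphorylates CREB at the cAMP response element (CRE) of its target genes. Growth factors and calcium act on an overlapping set of genes through MAP kinases, serum response factor (SRF) and its ternary complex partners. In the thyroid, thyroid-stimulating hormone (TSH) raises cyclic AMP in follicular cells. In neurons and pituitary cells the same genes respond to activity and to releasing hormones, and their RNAs are short-lived.

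The members fall into 8 roles. Among them are 8 AP-1 subunits and partners (Fos, Fosb, Fosl1, Fosl2, Jun, Junb, Jund, Maff), 4 EGR zinc finger factors (Egr1, Egr2, Egr3, Egr4), 3 NR4A orphan nuclear receptors (Nr4a1, Nr4a2, Nr4a3), 3 CREB-linked genes (Crem, Per1, Sik1) and 5 other transcription factors (Klf2, Klf4, Klf6, Myc, Npas4). The others are 4 early response genes of less defined role (Ier2, Ier3, Ier5, Btg2), 5 phosphatases of MAP kinases (Dusp1, Dusp2, Dusp4, Dusp5, Dusp6) and 5 other effectors (Arc, Zfp36, Gem, Rgs2, Ptgs2).

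The promoters of the NR4A family and of Btg2 are shown because the family members share a short site of the CRE but did not share a genotype difference, and because Btg2 was 1 of 3 members with the whole element. The bases lie before the transcription start in RefSeq (GRCm38.p6, the build named mm10 in the submitters' processing notes). For Nr4a3 the last 152 bases before the start are not shown, as an annotated exon of the gene (GENCODE M21) overlaps them. Capitals mark the short site TGACG, the first part of the CRE, or its reverse complement CGTCA in the NR4A promoters and the whole CRE TGACGTCA in Btg2, which holds the short site on both strands. The capitals number 4 in Nr4a1 (chr15:101266596-101266845, plus strand), 4 in Nr4a2 (chr2:57124004-57124253, minus strand), 3 in the stretch of Nr4a3 shown (chr4:48045055-48045152, plus strand) and 1 in Btg2 (chr1:134079156-134079405, minus strand).
Nr4a1: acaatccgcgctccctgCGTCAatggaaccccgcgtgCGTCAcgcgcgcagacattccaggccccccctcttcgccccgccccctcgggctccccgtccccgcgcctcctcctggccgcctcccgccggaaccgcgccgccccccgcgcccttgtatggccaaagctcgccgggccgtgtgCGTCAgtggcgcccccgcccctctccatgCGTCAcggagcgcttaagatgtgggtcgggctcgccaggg
Nr4a2: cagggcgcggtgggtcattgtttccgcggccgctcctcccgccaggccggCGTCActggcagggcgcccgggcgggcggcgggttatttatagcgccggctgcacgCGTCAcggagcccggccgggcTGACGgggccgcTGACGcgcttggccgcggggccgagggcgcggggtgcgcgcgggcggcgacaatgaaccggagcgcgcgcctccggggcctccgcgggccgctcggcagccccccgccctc
Nr4a3: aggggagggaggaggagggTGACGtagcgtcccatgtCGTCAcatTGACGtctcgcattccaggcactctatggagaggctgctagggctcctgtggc
Btg2: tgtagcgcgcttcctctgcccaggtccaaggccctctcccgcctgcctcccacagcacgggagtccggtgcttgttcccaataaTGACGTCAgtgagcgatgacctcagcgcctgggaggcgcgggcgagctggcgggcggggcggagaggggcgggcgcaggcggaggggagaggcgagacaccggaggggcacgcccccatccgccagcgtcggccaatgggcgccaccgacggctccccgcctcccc
Of the 37 members, 27 matched a promoter in this table. The 10 without one were Arc, Crem, Dusp4, Egr1, Egr3, Fosl1, Gem, Ier2, Myc and Sik1. Only the 250 bases before each start were searched for each motif, so sites farther upstream were not counted. The whole CRE was in the 250 bases before the start of 3 of the 27 (Btg2, Dusp1 and Maff), and it was in 1.55% of all 32851 promoters of the table. The short site was in 17 of the 27, against 17.8% of all promoters, and 10 of those 17 belonged to the 15 matched members that any test called. The CArG box, which binds SRF, was in 3 of the 27 (Dusp5, Egr2 and Zfp36), against 1.47% of all promoters. A gene with several starts counted once if any of them held the motif, whereas the shares count each promoter. These 4 promoters were picked after the motif counts were seen, and a match in the letters is a description of the sequence only.

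Expression was given as normalized CPM, reads relative to a library size that the authors had scaled. It was compared between genotypes within a tissue by limma on log2(CPM + 0.5), for genes that reached 0.5 CPM in 3 or more of its 6 libraries. A gene was called when its p-value, adjusted by the Benjamini-Hochberg procedure over all genes tested, was under 0.05. Fold changes are K146Q minus WT on this scale, on which the change of weakly expressed genes comes out too small. Libraries held 14902330 to 21230050 reads, so that 3 reads, used here as the floor, correspond to 0.133 to 0.190 CPM. The members passing the filter numbered 35 in hypothalamus, 36 in pituitary and 34 in thyroid. The others were Fosl1 in every tissue, Egr2 in hypothalamus, and Egr4 and Npas4 in thyroid. The single base change of the knock-in cannot be read from counts per gene. Thrb RNA itself was at 27.0, 28.8 and 28.1 CPM in WT and 26.7, 26.1 and 30.0 CPM in K146Q hypothalamus, was higher in K146Q pituitary (log2 fold change 0.65, standard error 0.095, adjusted p = 0.00285) and lower in K146Q thyroid (log2 fold change -1.33, standard error 0.15, adjusted p = 6.21e-04).

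The thyroid is where these genes differed most often between genotypes. Of 34 members tested there, 16 (47.1%) were higher in K146Q mice and 3 (8.82%) were lower, against 19.7% and 18.1% of all 15200 genes tested. The members' median log2 fold change was 0.62, and that of all genes was -0.025. With the 10 highest genes, Tg among them, left out of the library totals, 13 members were higher and 3 lower, and the calls over all genes went from 2992 higher and 2747 lower to 2494 higher and 3610 lower. The Ras-related GTPase Gem and the prostaglandin synthase Ptgs2 rose most, followed by the AP-1 subunit Junb, the receptor Nr4a2, the phosphatase Dusp2 and the AP-1 subunit Fosl2. Of these, Ptgs2 passed the filter in thyroid only through its K146Q libraries. Without K146Q mouse 62 the calls numbered 9 (8 higher and 1 lower), and without K146Q mouse 60 they numbered 12. The share of all genes called in these fits was not counted, so the falls cannot be set against genes at large. The 9 that were called whichever mouse was left out were Fosl2, Junb, Egr2, Nr4a2, Crem, Dusp2, Gem and Ptgs2 among those that rose, and Dusp4 among those that fell.

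In the pituitary 1 of 36 members (2.78%) was higher in K146Q mice, against 6.36% of all genes, and 3 (8.33%) were lower, against 3.5%. These were the MAP kinase phosphatase Dusp4, which rose, and the genes Arc, Egr3 and Npas4, which fell. The median log2 fold change of the members was -0.31, and that of all genes was -0.0088. The same change of totals called the same 4 members, and moved the calls over all genes from 991 higher and 546 lower to 835 higher and 878 lower. Without WT mouse 2, 14 members were called lower in K146Q mice (Arc, Btg2, Dusp1, Egr4, Fos, Fosb, Fosl2, Gem, Junb, Klf4, Npas4, Nr4a2, Nr4a3 and Zfp36), when 2.37% of all genes were. Without K146Q mouse 60 only Dusp4 and Arc were called, and the share of all genes called in that fit was not counted.

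In the hypothalamus no member was called by limma, and no gene at all was, so that the share of all genes was 0.0 in both directions. At an unadjusted p under 0.05 there was 1 member, Egr3, and 645 of all 15761 genes. By edgeR and by DESeq2 on the reads 0 members were called. The members' median log2 fold change was -0.084. Without K146Q mouse 83, Fos and Egr1 were called lower in K146Q mice, when 0.0254% of all genes were.

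**Figure D1:**
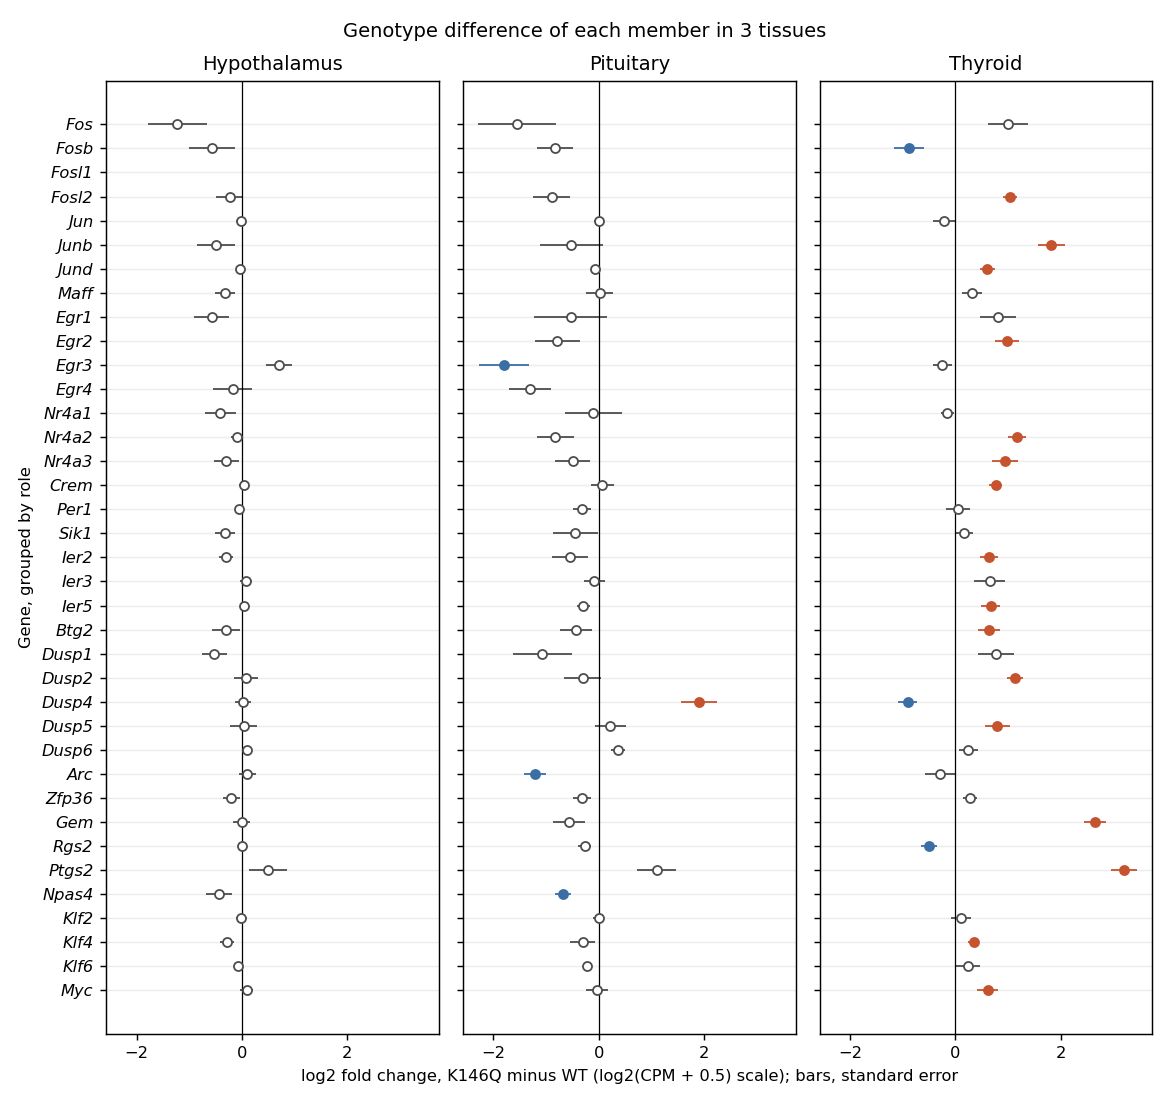
The log2 fold change (K146Q minus WT, log2(CPM + 0.5) scale) of each member is plotted on the x axis with its standard error as a bar, for hypothalamus, pituitary and thyroid, with genes on the y axis grouped by role. Filled red points were called higher, filled blue points lower, and open points were not called. Members without a point did not pass the filter. The thyroid panel has 16 red and 3 blue points, the pituitary panel 1 and 3, and the hypothalamus panel has no filled point.

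AP-1 subunits form the dimers that bind the AP-1 element of promoters and enhancers. In the thyroid 3 of 7 tested were higher (Fosl2, Junb, Jund) and 1 was lower (Fosb), against 19.7% and 18.1% of all genes. Junb was at 70.5, 31.8 and 43.2 CPM in WT and at 159, 166 and 166 CPM in K146Q thyroid (log2 fold change 1.82, standard error 0.25, adjusted p = 0.00130). The lowest K146Q library was more than 2 times the highest WT library. Fosl2 was at 167, 129.5 and 134 CPM in WT and 252, 295 and 339 CPM in K146Q thyroid (log2 fold change 1.04, standard error 0.14, adjusted p = 0.00128), again with no overlap. For Jund, the most constitutive Jun protein, the values were 725, 519 and 617 CPM in WT and 984, 959 and 869 CPM in K146Q mice (log2 fold change 0.61, standard error 0.15, adjusted p = 0.0156). Its ranges were also apart, and the call was lost without K146Q mouse 62 and under quantile normalization. Fosb went the other way, from 8.34, 4.999 and 6.50 CPM in WT to 2.78, 2.41 and 5.22 CPM in K146Q thyroid (log2 fold change -0.88, standard error 0.29, adjusted p = 0.0476), and the highest K146Q library was above the lowest WT library. The Fosb call was made in 2 of the 6 fits that leave out a mouse.

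Fos, the prototype of the class, was at 32.4, 10.2 and 14.9 CPM in WT and 36.97, 28.3 and 39.5 CPM in K146Q thyroid (log2 fold change 0.997, standard error 0.37, adjusted p = 0.0687), and was not called. WT mouse 1 lay well above the other WT mice, within the range of the K146Q mice. Without that mouse Fos was called higher, as were Egr1, Ier3 and Dusp6. In the pituitary Fos was at 193, 16.1 and 55.4 CPM in WT and 11.9, 36.7 and 14.8 CPM in K146Q mice (log2 fold change -1.55, standard error 0.74, adjusted p = 0.224). The WT values spread 12.0-fold, more than those of any other member measured at 1 CPM or more there. In the hypothalamus the values were 29.1, 26.6 and 43.7 CPM in WT and 8.99, 6.004 and 44.2 CPM in K146Q mice (log2 fold change -1.23, standard error 0.56, adjusted p = 0.998). Here the spread was on the K146Q side, 7.36-fold, with mice 60 and 62 below all WT mice and mouse 83 above them.

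Junb was not called outside the thyroid. It was at 388, 53.1 and 283 CPM in WT and 92.3, 164 and 131 CPM in K146Q pituitary (log2 fold change -0.52, standard error 0.60, adjusted p = 0.644), where WT mouse 2 had the lowest value of all and the other WT mice the highest. Its hypothalamic values were 24.9, 22.1 and 33.2 CPM in WT and 15.4, 10.9 and 38.0 CPM in K146Q mice (log2 fold change -0.49, standard error 0.35, adjusted p = 0.998). Jun was not called in any tissue, and in the thyroid it differed by -0.21 on the log2 scale (standard error 0.22, adjusted p = 0.496). Fosl1 was at 0.379, 0.0633 and 0.241 CPM in WT and 1.09, 0.411 and 1.58 CPM in K146Q thyroid and did not pass the filter. Its K146Q libraries were all above its WT libraries, and limma without the filter called it higher in K146Q thyroid and called its effect larger there than in hypothalamus.

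**Figure D2:**
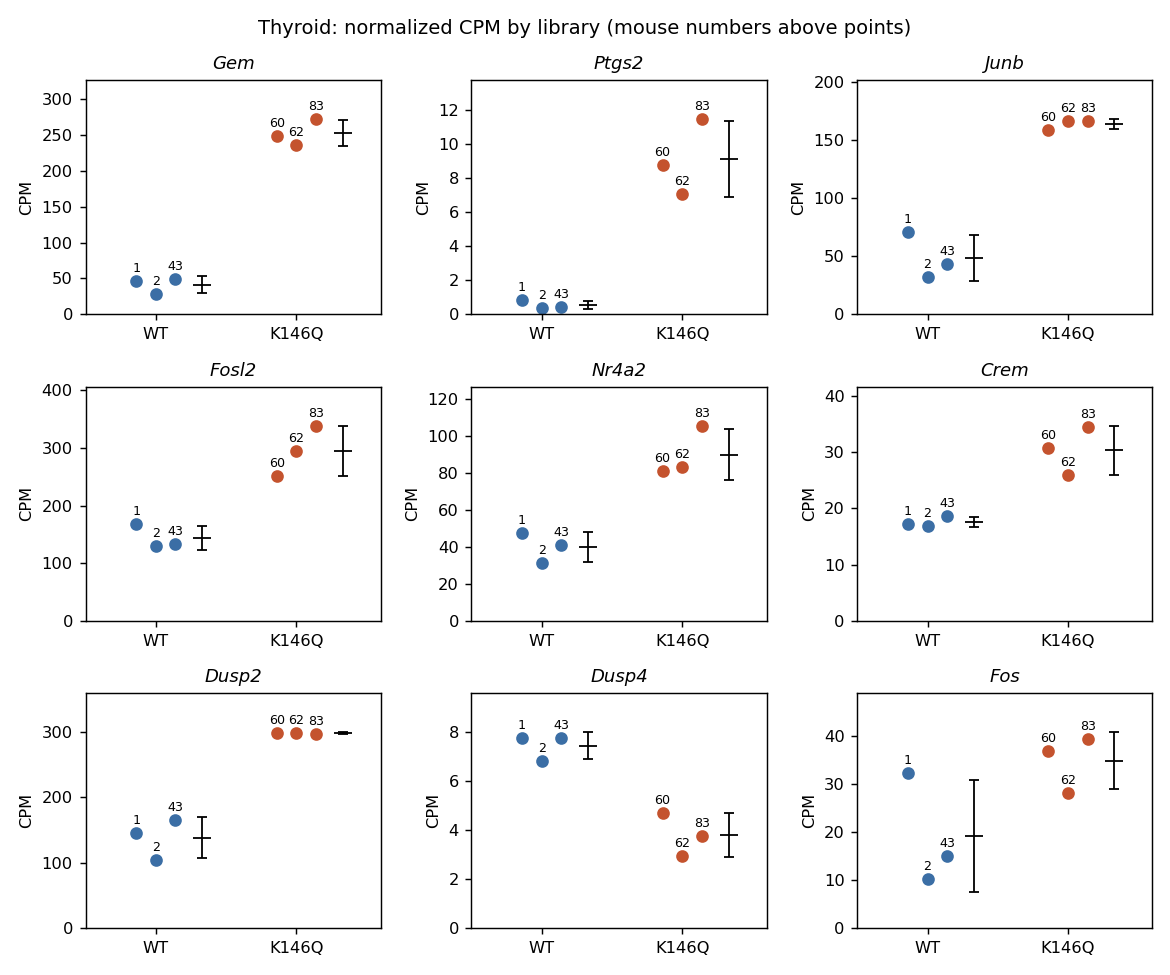
Normalized CPM in the thyroid (y axis, from 0) of 9 members is shown for each of the 3 WT and 3 K146Q libraries (points, with mouse numbers) together with the mean and SD of the group (black). In Gem, Ptgs2, Junb, Fosl2, Nr4a2, Crem and Dusp2 every K146Q library lies above every WT library, in Dusp4 every one lies below, and in Fos WT mouse 1 lies among the K146Q mice.

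EGR factors bind GC-rich promoter elements and rise with SRF and MAP kinase signals. Egr2 was higher in K146Q thyroid, at 5.11, 5.58 and 7.44 CPM against 3.47, 1.96 and 3.13 CPM in WT (log2 fold change 0.98, standard error 0.23, adjusted p = 0.0140). Egr1 was at 89.7, 32.8 and 34.9 CPM in WT and 78.8, 88.9 and 79.4 CPM in K146Q thyroid (log2 fold change 0.80, standard error 0.35, adjusted p = 0.105), a difference that did not pass the test, and as for Fos WT mouse 1 stood apart from the other WT mice. In the pituitary Egr1 was at 732, 78.3 and 295 CPM in WT and 184, 319 and 94.9 CPM in K146Q mice (log2 fold change -0.53, standard error 0.69, adjusted p = 0.684), so that WT mice held both the highest and the lowest value. In the hypothalamus it was at 78.6, 73.7 and 93.0 CPM in WT and 37.1, 38.2 and 113 CPM in K146Q mice (log2 fold change -0.58, standard error 0.34, adjusted p = 0.998). K146Q mice 60 and 62 were below the WT range and mouse 83 above it.

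Egr3 was the EGR factor called in the pituitary, where it was lower in K146Q mice, at 1.08, 1.48 and 4.77 CPM against 4.54, 8.18 and 15.3 CPM in WT (log2 fold change -1.79, standard error 0.48, adjusted p = 0.0447). The ranges touched, since K146Q mouse 83 was above WT mouse 1. Its call was made in 2 of the 6 fits that leave out a mouse and was lost by edgeR and DESeq2. In the hypothalamus Egr3 had 8.89, 5.32 and 6.21 CPM in WT and 7.18, 12.1 and 15.9 CPM in K146Q mice (log2 fold change 0.70, standard error 0.26, adjusted p = 0.998). In the thyroid it ranged from 1.41 to 2.34 CPM and was not called. Egr4, a factor of neurons, was at 0 in 5 of the 6 thyroid libraries.

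NR4A receptors are orphan nuclear receptors induced by cyclic AMP in many endocrine cells, and their promoters, shown above, hold several CRE short sites. In the thyroid Nr4a2 was at 47.4, 31.4 and 41.3 CPM in WT and 81.0, 83.2 and 106 CPM in K146Q mice (log2 fold change 1.17, standard error 0.17, adjusted p = 0.00159). Nr4a3 was at 5.05, 5.82 and 6.01 CPM in WT and 7.88, 10.9 and 16.5 CPM in K146Q mice (log2 fold change 0.94, standard error 0.25, adjusted p = 0.0209). For both, no WT library reached the lowest K146Q library. Nr4a1 did not follow them, at 35.4, 40.1 and 41.1 CPM in WT and 41.4, 30.6 and 33.4 CPM in K146Q thyroid (log2 fold change -0.15, standard error 0.13, adjusted p = 0.380), with overlapping ranges.

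Nr4a1 was highest in the pituitary, where it was at 597, 146.4 and 739 CPM in WT and 592, 383 and 230.4 CPM in K146Q mice (log2 fold change -0.10, standard error 0.54, adjusted p = 0.933). WT mouse 2 was again the lowest of all. In the hypothalamus Nr4a1 was at 34.1, 27.2 and 39.1 CPM in WT and 18.7, 17.8 and 45.2 CPM in K146Q mice (log2 fold change -0.41, standard error 0.29, adjusted p = 0.998). No NR4A receptor was called in the pituitary or hypothalamus.

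Of the 3 CREB-linked genes, Crem encodes CREB-family activators and the repressor ICER, and Sik1 a kinase that restrains the CREB coactivators. Per1 encodes a clock repressor, and its promoter responds to CREB. Crem was higher in K146Q thyroid, at 30.7, 25.9 and 34.5 CPM against 17.2, 17.0 and 18.6 CPM in WT (log2 fold change 0.76, standard error 0.12, adjusted p = 0.00268), and the groups were apart. Sik1 was at 90.4, 70.2 and 116 CPM in WT and 99.0, 94.2 and 109.6 CPM in K146Q thyroid (log2 fold change 0.16, standard error 0.17, adjusted p = 0.511). Per1 was at 66.5, 114 and 125 CPM in WT and 116, 99.7 and 89.2 CPM in K146Q thyroid (log2 fold change 0.044, standard error 0.23, adjusted p = 0.898). The ranges of both overlapped, so Crem alone of the 3 was called there. The tables count reads per gene, and the ICER transcript of Crem is not separated from the others.

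In the pituitary Crem was at 37.5, 35.3 and 57.9 CPM in WT and 41.2, 35.4 and 61.0 CPM in K146Q mice (log2 fold change 0.072, standard error 0.22, adjusted p = 0.876). Sik1 was at 184, 41.6 and 96.9 CPM in WT and 70.3, 82.1 and 51.1 CPM in K146Q mice (log2 fold change -0.44, standard error 0.42, adjusted p = 0.568), and WT mouse 1 was its highest library. Per1 was at 271, 245 and 354 CPM in WT and 285, 228 and 187 CPM in K146Q mice (log2 fold change -0.32, standard error 0.16, adjusted p = 0.265). Each of these groups overlapped. In the hypothalamus Crem was nearly constant, at 7.52, 7.51 and 7.43 CPM in WT and 7.97, 7.05 and 8.07 CPM in K146Q mice (log2 fold change 0.035, standard error 0.10, adjusted p = 0.998). Per1 was at 114, 118 and 124 CPM in WT and 108, 109 and 126 CPM in K146Q mice (log2 fold change -0.049, standard error 0.062, adjusted p = 0.998). For Sik1 the values were 40.0, 37.2 and 49.96 CPM in WT and 30.3, 25.7 and 48.2 CPM in K146Q mice (log2 fold change -0.32, standard error 0.19, adjusted p = 0.998), with mice 60 and 62 below the WT range.

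Dual-specificity phosphatases remove phosphate from MAP kinases and are induced by the kinases they switch off. Dusp4 was called in both glands, in opposite directions. In the pituitary it rose from 2.00, 1.03 and 2.85 CPM in WT to 13.3, 8.07 and 5.22 CPM in K146Q mice (log2 fold change 1.91, standard error 0.35, adjusted p = 0.00828). In the thyroid it fell from 7.77, 6.83 and 7.76 CPM in WT to 4.71, 2.94 and 3.75 CPM in K146Q mice (log2 fold change -0.91, standard error 0.18, adjusted p = 0.00732). In either gland the genotypes did not overlap, and the call was made in all 6 fits that leave out a mouse. In the hypothalamus it differed by 0.020 on the log2 scale (standard error 0.15, adjusted p = 0.998).

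Dusp2, a nuclear phosphatase, was higher in K146Q thyroid, at 298, 299 and 296 CPM against 145, 104 and 165 CPM in WT (log2 fold change 1.13, standard error 0.16, adjusted p = 0.00147), and the K146Q libraries lay within 3 CPM of each other. Dusp5, also nuclear, was at 2.34, 1.14 and 1.98 CPM in WT and 3.47, 3.17 and 3.63 CPM in K146Q thyroid (log2 fold change 0.79, standard error 0.23, adjusted p = 0.0309). Its ranges were apart and its call was made in 2 of the 6 fits without a mouse. Dusp1 and Dusp6 were not called in any tissue. Dusp1 in the thyroid ranged from 41.6 to 98.7 CPM in WT and from 85.8 to 167 CPM in K146Q mice (log2 fold change 0.76, standard error 0.34, adjusted p = 0.117).

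The largest differences of the set were in effectors. Gem, a small GTPase that restrains calcium channels, was at 46.7, 27.7 and 49.4 CPM in WT and 249, 236 and 273 CPM in K146Q thyroid (log2 fold change 2.64, standard error 0.21, adjusted p = 1.38e-04). The mean was 6.12-fold higher in K146Q mice. Ptgs2, the inducible cyclooxygenase, was at 0.821, 0.380 and 0.421 CPM in WT and 8.77, 7.05 and 11.5 CPM in K146Q thyroid (log2 fold change 3.21, standard error 0.25, adjusted p = 1.27e-04). The ratio of its means was 16.8, and the lowest library held 6 reads and the highest 196. Among WT libraries only that of mouse 1 reached 0.5 CPM, so Ptgs2 was tested because of the group in which it was high. A minimum of 1 CPM in every library left it out. Rgs2, which speeds the shutdown of G protein signals, was at 21.1, 20.8 and 22.0 CPM in WT and 19.1, 14.0 and 12.4 CPM in K146Q thyroid (log2 fold change -0.50, standard error 0.16, adjusted p = 0.0411), and its call was made in 1 of the 6 fits without a mouse.

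Arc, an activity-regulated gene of neurons, fell in the pituitary from 34.6, 19.4 and 27.2 CPM in WT to 8.67, 12.3 and 12.8 CPM in K146Q mice (log2 fold change -1.21, standard error 0.21, adjusted p = 0.00631). Every K146Q library was below every WT library, and the call was made whichever mouse was left out. Npas4, a transcription factor induced by calcium entry, fell in the pituitary from 15.1, 11.1 and 11.4 CPM in WT to 6.60, 8.68 and 7.62 CPM in K146Q mice (log2 fold change -0.68, standard error 0.15, adjusted p = 0.0241). The groups were apart, and the call was made in 3 of the 6 fits without a mouse. Ptgs2 in the pituitary was at 0.623, 0.172 and 0.797 CPM in WT and 3.30, 1.12 and 1.05 CPM in K146Q mice (log2 fold change 1.097, standard error 0.37, adjusted p = 0.0997), a difference that limma did not call and DESeq2 did, on 3 to 64 reads. The WT library of mouse 2 was below 0.5 CPM. Ptgs2 therefore passed the filter in pituitary only through its K146Q libraries, the group in which it was high. Egr4 in the pituitary was at 4.72, 2.92 and 11.4 CPM in WT and 1.81, 1.43 and 2.71 CPM in K146Q mice (log2 fold change -1.30, standard error 0.39, adjusted p = 0.0704), with the groups apart. DESeq2 called it lower, and limma did so only without WT mouse 2.

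**Figure D3:**
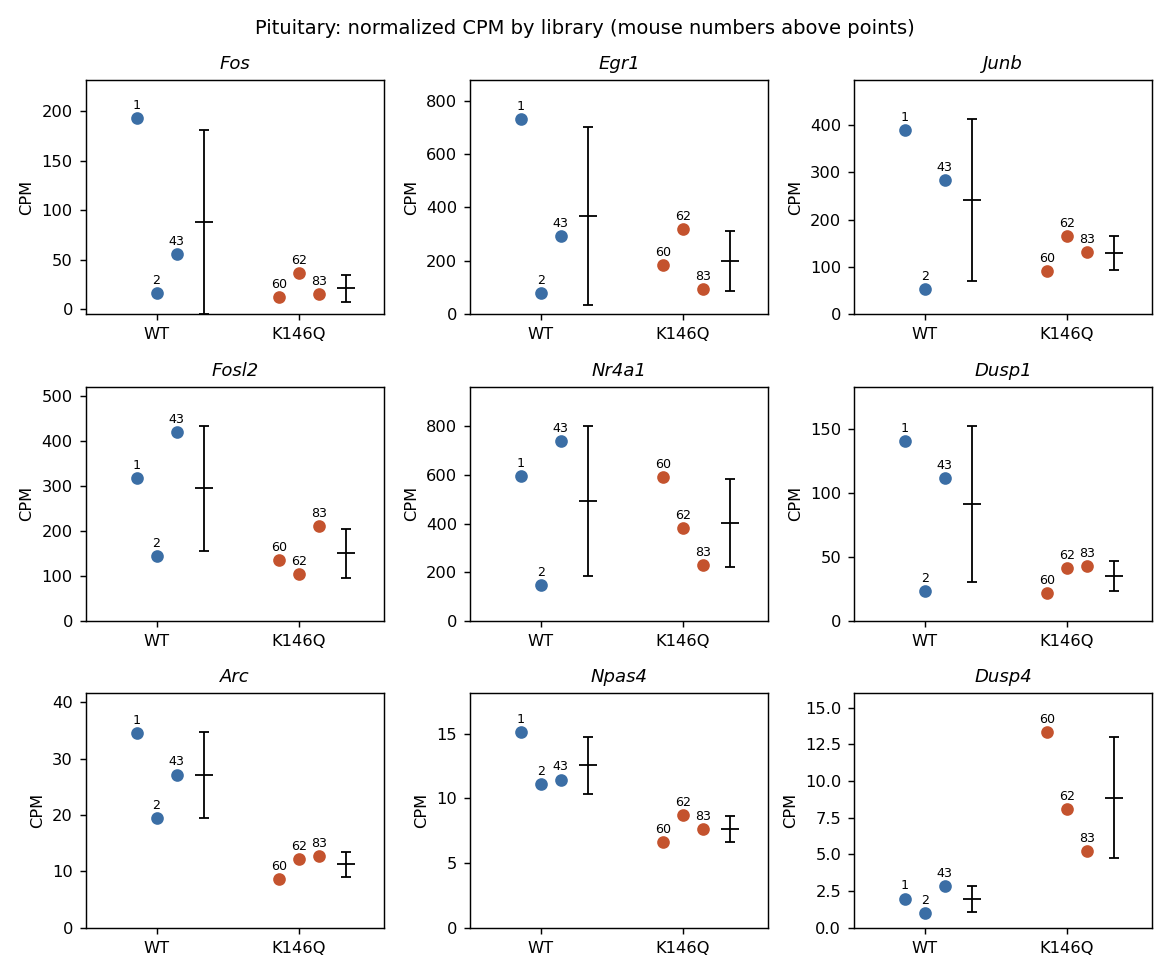
Normalized CPM in the pituitary (y axis) of 9 members is shown for each of the 3 WT and 3 K146Q libraries (points, with mouse numbers) together with the mean and SD of the group (black). For Fos, Egr1, Junb, Fosl2, Nr4a1 and Dusp1 WT mouse 2 lies far below WT mice 1 and 43, whereas in Arc and Npas4 all WT libraries lie above and in Dusp4 all lie below the K146Q libraries.

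Of the early response genes of less defined role, 3 of 4 were higher in K146Q thyroid, against 19.7% of all genes. Ier2 was at 47.1, 29.3 and 34.9 CPM in WT and 56.3, 62.1 and 52.6 CPM in K146Q mice (log2 fold change 0.64, standard error 0.17, adjusted p = 0.0204). Ier5 was at 63.1, 38.0 and 56.7 CPM in WT and 81.2, 75.0 and 90.5 CPM in K146Q mice (log2 fold change 0.67, standard error 0.18, adjusted p = 0.0236). Btg2, an antiproliferative gene whose promoter holds the whole CRE shown above, was at 72.3, 38.8 and 51.9 CPM in WT and 76.4, 77.7 and 94.6 CPM in K146Q mice (log2 fold change 0.64, standard error 0.21, adjusted p = 0.0449). The ranges of all 3 were apart. Of the 6 fits that leave out a mouse, 3 called Ier2, 3 called Ier5 and 1 called Btg2, and without K146Q mouse 62 none of them was called. The call of Btg2 was also lost without the filter, without the trend, by edgeR and with totals without the 10 highest genes. Ier3 was not called, although its ranges were apart too (log2 fold change 0.65, standard error 0.29, adjusted p = 0.116).

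Among the other transcription factors, Myc, a driver of growth, was at 22.9, 13.5 and 13.1 CPM in WT and 25.2, 23.6 and 25.0 CPM in K146Q thyroid (log2 fold change 0.61, standard error 0.20, adjusted p = 0.0488). Klf4, a zinc finger factor of epithelia, was at 90.6, 77.8 and 90.5 CPM in WT and 125, 101 and 104 CPM in K146Q thyroid (log2 fold change 0.35, standard error 0.11, adjusted p = 0.0382). Both were close to the threshold, and of the 6 fits without a mouse 1 called Myc and 0 called Klf4. Klf2 and Klf6 were not called in any tissue.

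Counted by whether the 3 K146Q libraries lay wholly above or below the 3 WT libraries, 17 members in the thyroid were above and 2 below, against 26.6% and 25.7% of all genes. In the pituitary 3 members were above and 5 below, against 16.7% and 14.3%. In the hypothalamus 0 were above and 1 below, against 4.2% and 4.95%.

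Whether the genotype difference itself differed between tissues was tested with limma over all 18 libraries, on 17140 genes and 36 members. The genotype effect was larger in thyroid than in pituitary for 11 members, when it was for 16.4% of all genes, and smaller for 1 (Dusp4), when it was for 17.4%. Between thyroid and hypothalamus it was larger for 7 members and smaller for none, against 15.6% and 15.2% of all genes. Between pituitary and hypothalamus it was larger for 1 member and smaller for 1, against 2.29% and 0.945%. The median of these differences over the members was 0.71 for thyroid minus pituitary and 0.63 for thyroid minus hypothalamus. With the mouse number as a block, the calls rose from 12 to 19 for thyroid minus pituitary and from 7 to 12 for thyroid minus hypothalamus. The share of all genes called with the block was not counted, so this rise cannot be set against genes at large. The values are on the log2 scale, and the tissues were taken to share their mice, which is inferred from the numbers.

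Gem had a genotype effect larger by 3.21 in thyroid than in pituitary (standard error 0.39, adjusted p = 8.71e-06) and by 2.65 than in hypothalamus (standard error 0.39, adjusted p = 7.52e-05). For Dusp4 the effect in thyroid minus that in pituitary was -2.81 (standard error 0.41, adjusted p = 5.75e-05). Dusp4 was also the member whose effect was larger in pituitary than in hypothalamus, by 1.89 (standard error 0.41, adjusted p = 0.0147). For Egr3 the effect in pituitary minus that in hypothalamus was -2.50 (standard error 0.58, adjusted p = 0.0243). Crem, Ier5, Junb, Jund, Nr4a2 and Ptgs2 had larger effects in thyroid than in either other tissue. Dusp2, Fosl2, Ier2 and Nr4a3 had larger effects in thyroid than in pituitary, and were not called against hypothalamus. The standard error against hypothalamus includes the scatter of the pituitary libraries. For Fosl2 it was 0.48, whereas within a tissue it was 0.14 in thyroid, 0.26 in hypothalamus and 0.36 in pituitary. With the mouse number as a block, limma also called Fosl2 (adjusted p = 0.0206) and Ier2 (adjusted p = 0.0245) against hypothalamus.

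**Figure D4:**
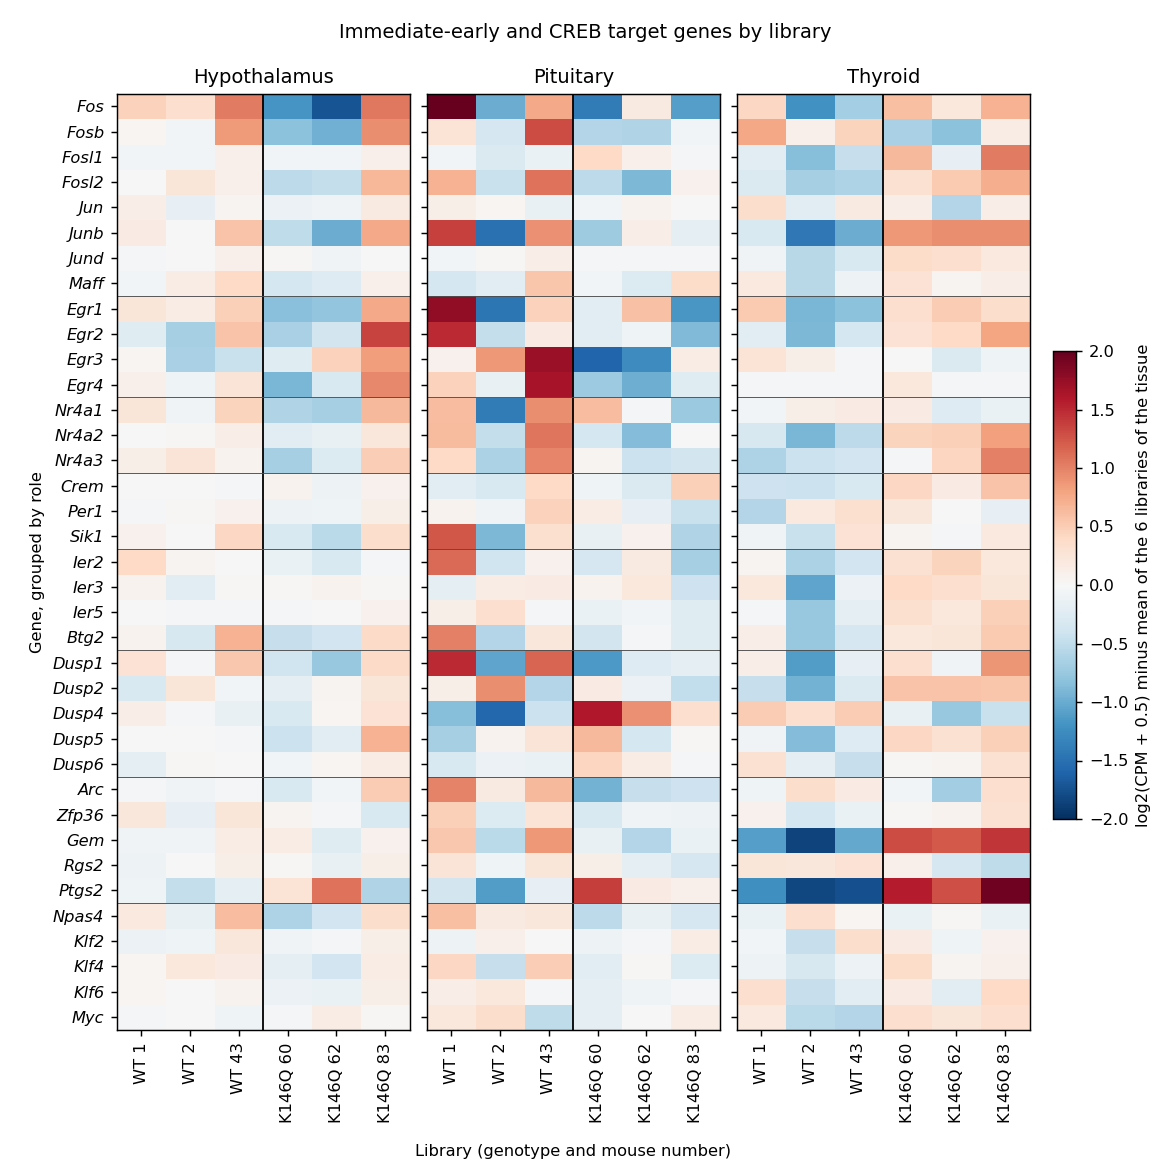
Each cell gives log2(CPM + 0.5) of a member (y axis, grouped by role) in a library (x axis, genotype and mouse number) minus the mean of the 6 libraries of that tissue, from blue (lower) to red (higher), with the scale cut at 2 in either direction. The thyroid panel splits at the line between genotypes for Gem, Ptgs2 and Junb, while in the pituitary WT mouse 2 and in the hypothalamus K146Q mouse 83 differ from the other mice of their genotype.

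The members' median spread between mice of a genotype was above that of all genes in each group, by little in K146Q thyroid. In WT pituitary the highest of 3 libraries was a median of 2.44 times the lowest over 34 members at 1 CPM or more, against 1.21 over all such genes. Of these members, 20 spread more than 2-fold, as did 2.59% of all genes. In K146Q pituitary the median ratio was 1.61, against 1.15 over all genes. In the hypothalamus it was 1.24 in WT and 1.499 in K146Q mice, against 1.12 over all genes in both. In the thyroid it was 1.66 in WT and 1.269 in K146Q mice, against 1.21 over all genes in both.

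In several groups single mice stood apart across many members. WT mouse 1 was the highest WT library for 24 of 34 members in the thyroid (34.4% of all genes). WT mouse 43 was so for 20 of 35 in the hypothalamus (34.1% of all genes). In K146Q pituitary no mouse stood out, with mice 60, 62 and 83 highest for 9, 13 and 14 of 36 members. In the pituitary WT mouse 2 was the lowest of the 3 WT libraries for 24 of 36 members, when it was for 33.3% of all genes. The same mouse was the lowest WT library for 27 of 34 members in the thyroid (38.0% of all genes) and for 18 of 35 in the hypothalamus (27.8% of all genes). K146Q mouse 83 was the highest K146Q library for 29 of 35 members in the hypothalamus (36.0% of all genes), 18 of 34 in the thyroid (36.1% of all genes) and 14 of 36 in the pituitary (38.0% of all genes), where it was also the lowest K146Q library for 14. The summed CPM of the members in the pituitary was 4289, 1700 and 3753 in WT and 2359, 2327 and 1967 in K146Q mice, so that WT mouse 2 was below all others and the other WT mice above them. In the hypothalamus the sums were 1001, 964 and 1124 CPM in WT and 849, 831 and 1178 CPM in K146Q mice. In the thyroid they were 2817, 1944 and 2458 CPM in WT and 3732, 3485 and 3865 CPM in K146Q mice, with every K146Q library above every WT library.

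**Figure D5:**
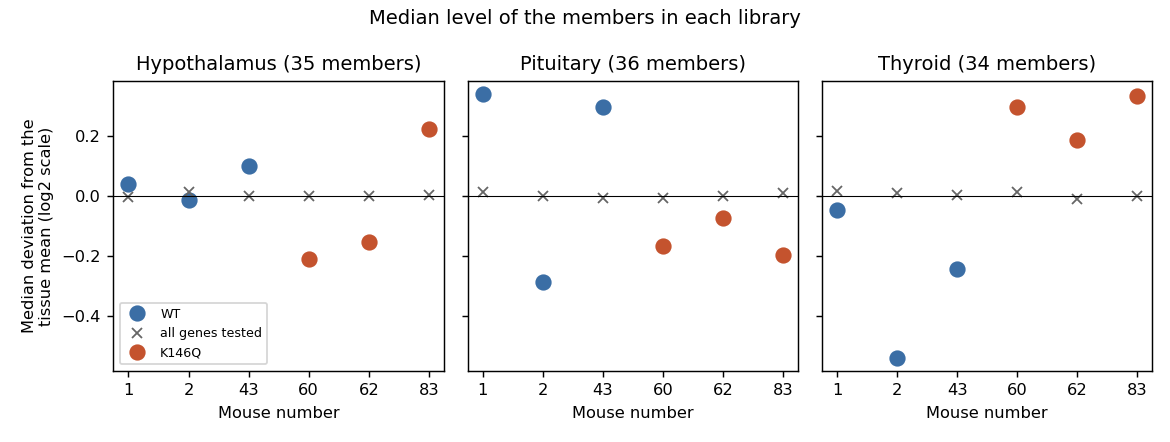
For each library (x axis, mouse number) the median over the tested members of log2(CPM + 0.5) minus the mean of the tissue is plotted (circles, WT blue and K146Q red), with the same median over all genes tested as a cross. The crosses lie no farther than 0.014 from 0. The circles of WT mouse 2 lie at -0.29 in pituitary and -0.54 in thyroid, and that of K146Q mouse 83 at 0.22 in hypothalamus.

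Other genes of the pathway were counted from lists. Of 22 upstream regulators (CREB and its coactivators, SRF and its partners, MAP kinases, RSK kinases and MEF2 factors), none was called in hypothalamus, 2 were higher in pituitary (Elk3, log2 fold change 0.43, and Mef2c, log2 fold change 0.47), and 3 were higher and 2 lower in thyroid. Of all genes, 6.36% were higher and 3.5% lower in pituitary, and 19.7% higher and 18.1% lower in thyroid. In the thyroid Elk3, a ternary complex partner of SRF, rose from 53.4 to 128 CPM in mean (log2 fold change 1.25, standard error 0.090, adjusted p = 0.000104). The median log2 fold change of this list in thyroid was -0.080, and Creb1 was not called in any tissue.

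The list of 42 other rapid-response genes was, like the members, chosen with earlier results of these data known. Of its 41 genes tested in thyroid, 21 were higher and 5 lower (19.7% and 18.1% of all genes), with a median log2 fold change of 0.61. Those past 1 on the log2 scale included Nfil3, a bZIP repressor, from a mean of 4.32 to 45.5 CPM (log2 fold change 3.28, standard error 0.26), and the matricellular genes Cyr61 (2.64, standard error 0.24) and Ctgf (2.56, standard error 0.43). They also included Cebpd (2.33, standard error 0.47), the cytokine signal inhibitor Socs3 (2.01, standard error 0.17), Id2 (1.88, standard error 0.11) and the neurotrophin Bdnf (1.74, standard error 0.27). The rest were Dusp14 (1.59), the cyclic AMP phosphodiesterase Pde4b (1.53), Errfi1 (1.32), Adamts1 (1.271), Id1 (1.01) and Hes1 (1.003), each a log2 fold change. In the pituitary 3 of the 42 were higher and 2 lower (6.36% and 3.5% of all genes). Vgf, a secretory granule gene, was at 10.5 to 27.7 CPM in WT and 78.8 to 197 CPM in K146Q pituitary (log2 fold change 2.91, standard error 0.38, adjusted p = 0.00151), and Bdnf was also higher (log2 fold change 1.79, standard error 0.24, adjusted p = 0.00181). In the hypothalamus none of the 42 was called.

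The tissues carried the markers of their labels, and several marker lists moved with genotype. In the thyroid the summed CPM of 6 follicular markers, mostly Tg, was 295355 to 358955 in WT and 85705 to 132327 in K146Q mice, and the single follicular genes were called higher for 2 and lower for 2. The 6 leukocyte markers summed to 82.2 to 114 CPM in WT and 208 to 219 CPM in K146Q thyroid, with 4 of 5 tested higher. Endothelial markers went from 605 to 693 CPM in WT to 815 to 863 CPM in K146Q thyroid (3 of 5 higher), and fibroblast markers from 525 to 615 CPM to 845 to 949 CPM (1 higher and 2 lower of 4). The 5 adipocyte markers fell from 640 to 703 CPM to 77.8 to 154 CPM, and the 4 parathyroid and C cell markers from 5612 to 8478 CPM to 686 to 1878 CPM, all 9 of them called lower. Skeletal muscle markers ranged from 336 to 6438 CPM in WT and from 755 to 3631 CPM in K146Q thyroid, with none of 5 called. None of these lists was at 0 in all libraries of a tissue. Their part in the members' differences was not tested, and in bulk tissue more cells of a type cannot be told apart from more RNA per cell.

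In the pituitary the 2 thyrotroph markers Tshb and Cga summed to 3392 to 4600 CPM in WT and 21806 to 28906 CPM in K146Q mice, and the lactotroph marker Prl to 19074 to 30662 CPM and 6929 to 8664 CPM. The leukocyte markers summed to 42.9 to 48.5 CPM in WT and 67.8 to 102 CPM in K146Q pituitary. Somatotroph markers were at 97899 CPM in WT mouse 1, 125616 CPM in WT mouse 2 and 213197 CPM in WT mouse 43. In K146Q mice 60, 62 and 83 they were at 62593, 74286 and 75481 CPM, all below every WT library, and 1 of 2 was called lower (Ghrhr). The 4 neuron markers summed to 531 to 592 CPM in WT and 767 to 834 CPM in K146Q pituitary, with 2 called higher and 1 lower. The part of these cell types in the members' differences was not tested. The hypothalamus of K146Q mouse 83, the highest K146Q library for most members, had the highest sums of 3 pituitary lists. Its thyrotroph markers were at 29.4 CPM (9.956 to 20.8 CPM in the other 5 hypothalamus libraries), its corticotroph and melanotroph markers at 31.3 CPM (14.3 to 24.2 CPM) and its somatotroph markers at 113 CPM (82.1 to 93.7 CPM). None of these markers was called in hypothalamus, and their part in the members' values was not tested.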

How the data were processed

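Total RNA of hypothalamus, pituitary and thyroid from 3 WT and 3 K146Q mice was sequenced. The authors deposited 1 table per tissue, in which 24054 genes each have a normalized CPM signal for every library. The submitters' processing notes name bcl2fastq 2.17, Bowtie2 2.1.0, RSEM 1.2.15 and mm10, without their roles. The tables also hold log2 fold changes, p-values and FDR of the authors' own comparison, which were not used. Each value divided by the worth of 1 read in its library was whole within 0.1 read for 100% of 144324 values per table, so the reads were recovered. Libraries held 14902330 to 21230050 reads, and 3 reads correspond to 0.133 to 0.190 CPM. These limits cover counting error only.

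The labels gave the tissue, genotype and a number for each sample, and the number was read as that of the mouse. Limma 3.58.1 (R 4.3.3) with a mean-variance trend was run per tissue on log2(CPM + 0.5), on genes that reached 0.5 CPM in 3 or more of its 6 libraries, with Benjamini-Hochberg adjustment over all genes tested and a threshold of 0.05. Differences of genotype effects between tissues used 6 group means over 18 libraries, with a shared estimate of the spread for each gene. They left out 27 symbols that had turned into dates in the tables of hypothalamus and pituitary. Values by library are given for every member that a test called and, in every tissue, for Fos, Egr1, Nr4a1, Junb, Crem, Per1 and Sik1. Ptgs2 and Egr4 in pituitary, Egr3 in hypothalamus and Fosl1 in thyroid were added after their values were seen, as were the promoters printed. Genes of other lists are given where called with a log2 fold change of at least 1 in size, or as the 2 largest. The members and lists were chosen with earlier results of these data known. Alternatives were pseudocounts of 0.1 and 1, testing of unfiltered genes, a minimum of 1 CPM throughout, median-of-ratios and quantile scaling, totals without the 10 highest genes, no trend, edgeR 4.0.16 and DESeq2 1.42.0 on the recovered reads, each mouse left out, and a replicate block.

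Genotypes share no mouse number, so libraries within a tissue are unpaired. Across tissues the same numbers were taken as the same mice, as tissues came from 3 mice of each genotype. This is inferred, and the correlation of same-numbered deviations over 11933 genes ran from -0.076 to 0.31. Between thyroid and pituitary it was always above that with another number of the genotype. In comparisons with hypothalamus another number at times correlated better, as for WT number 2 with pituitary (-0.076 against 0.071). The limma script was tested on simulated data in which 200 genes changed, and recovered 92.5% in hypothalamus (15751 genes), 92% in pituitary (15514 genes) and 90.5% in thyroid (15126 genes), with 5.13%, 3.67% and 7.65% of calls false, so that the thyroid share was above the nominal level. The simulation gave every gene the same spread and changed only genes that were not weakly expressed, by large folds. The members spread more than genes at large, as in WT pituitary (median of highest over lowest library 2.44, against 1.21 over all genes). The recovered shares therefore do not give the share of changed members that would be called. P-values measure the spread between 3 mice of a genotype.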

Additional observations from a re-analysis of the deposited data

Results flagged for a closer look

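The genotype effect of 13 members differed between tissues by a test of the difference itself (limma over 18 libraries, K146Q minus WT on the log2 scale). In 11 of them the effect in thyroid exceeded that in pituitary, by 3.21 for Gem, 2.34 for Junb, 2.11 for Ptgs2, 1.99 for Nr4a2, 1.93 for Fosl2, 1.43 for both Dusp2 and Nr4a3, 1.18 for Ier2, 0.95 for Ier5, 0.69 for Crem and 0.67 for Jund. For Dusp4 the effect in thyroid minus that in pituitary was -2.81, with the opposite sign in the 2 glands. The effect in thyroid exceeded that in hypothalamus by 2.71 for Ptgs2, 2.65 for Gem, 2.31 for Junb, 1.26 for Nr4a2, 0.73 for Crem, and 0.64 for both Ier5 and Jund. Pituitary minus hypothalamus gave 1.89 for Dusp4 and -2.50 for Egr3. The differences of Gem, Ptgs2 and Jund from either other tissue were called whichever mouse was left out, as were those of Fosl2, Nr4a2, Ier5 and Dusp4 between thyroid and pituitary. Those of Crem were called in 1 of 6 such fits against either tissue, that of Junb against pituitary in 1, and those of Dusp4 and Egr3 between pituitary and hypothalamus in 2. Over all genes, the effect was larger in 16.4% and smaller in 17.4% for thyroid minus pituitary, 15.6% and 15.2% for thyroid minus hypothalamus, and 2.29% and 0.945% for pituitary minus hypothalamus. The members' shares, in the same order, were 30.6% and 2.78%, 19.4% and 0%, and 2.78% and 2.78%. Both directions together, members were therefore called no more often than all genes in the comparisons with thyroid in this fit without a block. With the block more members were called, and the share over all genes was not counted. All 12 differences between thyroid and pituitary were called with the mouse number as a block.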

How the results depend on the processing

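No called member changed direction under any alternative run. Leaving out 1 mouse moved the number of members called from 0 to between 0 and 2 in hypothalamus, from 4 to between 2 and 15 in pituitary and from 19 to between 9 and 19 in thyroid. The share of all genes called was counted only in pituitary without WT mouse 2 and in hypothalamus without K146Q mouse 83. The median log2 fold change of the members ran from -0.68 (without WT mouse 2) to -0.18 in pituitary and from 0.41 (without WT mouse 2) to 0.78 in thyroid. The members whose effect differed numbered 0 to 2 for pituitary minus hypothalamus and 3 to 7 for thyroid minus hypothalamus, with 3 without K146Q mouse 62. The replicate block, which pairs tissues by mouse, gave 12 in place of 7 for thyroid minus hypothalamus. It gave 19 in place of 12 for thyroid minus pituitary, and lost no call of the fit without it. The share of all genes called with the block was not counted. The other alternatives kept each count within 1.5 times. Per member, the verdict changed in 60 of 543 results in thyroid (55 calls lost, 5 gained), 25 of 574 in pituitary (11 and 14) and 2 of 558 in hypothalamus, and a member not called changed sign in 4, 12 and 12. Without the 10 highest genes in the totals, all-gene calls split 2494 higher and 3610 lower in thyroid (2992 and 2747 as reported) and 835 and 878 in pituitary (991 and 546). That scaling called 13 members higher and 3 lower in thyroid. Egr4 and Npas4 in thyroid lie near or below the floor of 3 reads. The causes of these shifts were not tested.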

Other observations

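Clock, heat shock and glucocorticoid response genes were counted beside the members, since they also follow the hour and the handling of an animal. Of all genes, 19.7% were called higher and 18.1% lower in thyroid, and 6.36% and 3.5% in pituitary, so a few calls per list are no trait of these lists. None of 14 clock genes was called in hypothalamus, 1 was higher in pituitary, and 1 was higher and 2 lower in thyroid. The thyroid calls were Per2, which rose (log2 fold change 0.86, standard error 0.18), and Clock (-0.94, standard error 0.17) and Hlf (-1.47, standard error 0.40), which fell. Of 6 heat shock genes none was called in hypothalamus or pituitary. In the thyroid the chaperone gene Dnajb1 rose (0.79, standard error 0.11) while Hsph1 (-0.59, standard error 0.14) and Hspa1a (-0.42, standard error 0.14) fell. Of 6 glucocorticoid response genes, Zbtb16 fell in thyroid (-1.89, standard error 0.21), Errfi1 rose there (1.32, standard error 0.16), and Cdkn1a fell in pituitary (-0.91, standard error 0.23), with none called in hypothalamus.

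The thyroid library of WT mouse 1 held 366 CPM of the somatotroph markers Gh and Ghrhr and 132 CPM of the thyrotroph markers Tshb and Cga, against at most 125 and 21.7 CPM in the other thyroid libraries. This is the WT library in which Fos and Egr1 were highest. Skeletal muscle markers summed to 336 CPM in it, 4256 CPM in WT mouse 2 and 6438 CPM in WT mouse 43. Whether either bears on the members was not tested.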
